A study of Homo sapiens with 8 samples.

Results

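The AP-1 family of transcription factors was examined in HepG2, an established line of human hepatoma cells, after transfection with a plasmid encoding GRHL2. The members were chosen by name and comprised 4 FOS genes (FOS, FOSB, FOSL1 and FOSL2), 3 JUN genes (JUN, JUNB and JUND), ATF3, BATF3 and the small MAF gene MAFF. All 10 were found among the 17561 genes of the deposited table. RNA-seq of mRNA was performed 48 h after transfection on 4 pGRHL2 and 4 pcDNA3 libraries, numbered 1 to 4 for each plasmid and described by the study as independent biological replicates. The pGRHL2 construct carried flag-tagged GRHL2 behind an EEF1A1 promoter together with enhanced green fluorescent protein, whereas pcDNA3 is an empty vector, so that the effects of GRHL2, of the fluorescent protein and of the backbone cannot be told apart. Cells of both groups were grown on gelatin in William's E medium with serum, insulin and dexamethasone, a glucocorticoid. Because the members were listed when the differences between the plasmids were already known, their differences are described here with their spread. No p-value is printed for a single member, and statements of which members passed a threshold are likewise a description.

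AP-1 is a dimer of basic leucine zipper (bZIP) proteins. JUN proteins pair with each other or with FOS proteins, whereas FOS proteins need a JUN partner, and these dimers bind the AP-1 site TGACTCA. FOS, FOSB, JUN and JUNB are classical immediate early genes, whose transcripts appear within minutes of a growth factor or stress signal and decay quickly, while JUND is expressed more constantly. In the liver, JUN is known for its roles in hepatocyte survival and in regeneration.

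Deposited values are on a log2 scale and were set against transcript length by the authors. For every gene, the same-numbered pGRHL2 and pcDNA3 values had a mean that was identical for all 4 numbers, so the values under either plasmid are mirror images around that mean. Libraries of one number were for this reason taken as 4 pairs, each fold change on the log2 scale (log2 FC, pGRHL2 relative to pcDNA3) is the mean of 4 pair differences with their SD, and groups that do not overlap are the same thing as a difference of one sign in all 4 pairs. The depth behind each value is unknown, since no counts were used here. GRHL2 itself, which checks the labels, lay between 16.22 and 16.87 in pGRHL2 and between 6.61 and 7.25 in pcDNA3, and its pair differences were 8.97, 9.51, 10.26 and 9.18. The median log2 FC of all genes was 0.0017.

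The promoters of the 4 members that were lower in every pair are shown first, with that of JUND, the JUN gene that was not, since immediate early genes are known for compact promoters with signal-responsive sites near the start. Windows from 250 bases before to 50 bases after the RefSeq start (GRCh38.p14) were found for 8 of the 10 members, and ATF3 and MAFF each had a second window. The lines give bases 150 to 11 before the start on the strand of the gene. Capitals mark TATAAA, the AP-1-like site TGACATCA and TGACG, the core of the cyclic AMP response element, on either strand.
FOS, chr14:75278678-75278817, plus strand: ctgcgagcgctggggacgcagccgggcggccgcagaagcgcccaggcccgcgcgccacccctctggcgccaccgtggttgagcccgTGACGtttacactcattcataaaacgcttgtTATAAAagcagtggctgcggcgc
FOSB, chr19:45467846-45467985, plus strand: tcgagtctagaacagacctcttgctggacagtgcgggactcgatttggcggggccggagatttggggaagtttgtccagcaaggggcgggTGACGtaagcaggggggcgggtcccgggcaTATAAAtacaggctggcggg
JUNB, chr19:12791336-12791475, plus strand: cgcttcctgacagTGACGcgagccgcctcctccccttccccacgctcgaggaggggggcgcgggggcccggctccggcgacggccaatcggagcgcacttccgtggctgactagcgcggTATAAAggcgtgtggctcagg
JUN, chr1:58784058-58784197, minus strand: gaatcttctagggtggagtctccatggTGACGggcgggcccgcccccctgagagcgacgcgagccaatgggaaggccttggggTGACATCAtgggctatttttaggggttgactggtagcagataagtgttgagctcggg
JUND, chr19:18281633-18281772, minus strand: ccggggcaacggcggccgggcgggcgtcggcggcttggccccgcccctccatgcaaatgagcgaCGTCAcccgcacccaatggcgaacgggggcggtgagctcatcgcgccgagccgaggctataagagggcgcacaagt

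FOS, FOSB and JUNB each have TGACG upstream of TATAAA in these stretches, at unlike distances. TATAAA began at position -33 from the start in FOS, -30 in FOSB and -31 in JUNB. TGACG began at -64 in FOS and -60 in FOSB, but at -137 in JUNB. TATAAA was held by a window of FOS, FOSB, JUNB and ATF3, against 11.5% of all 35116 windows. In ATF3 it began at -230, far from the positions in the other members. TGACG was held by 7 of the 8 members with a window, FOS, FOSB, FOSL2, JUN, JUNB, JUND and MAFF, against 24.6% of all windows. A member counts if any of its windows matched, whereas the percentages count single windows. The full element TGACGTCA, which contains TGACG, was held by JUND and MAFF, against 1.85% of windows, and TGACATCA by JUN and ATF3, against 2.61%. The AP-1 site TGACTCA was held by FOSL2, against 4.95%. The core AACNNGTT of Grainyhead binding sites was held by 0 of the 8 members with a window, against 3.52% of windows, and the full AACCGGTT, a case of the former, also by 0, against 0.134%. The CArG box, the site of the serum response factor, was likewise held by 0 of the 8, against 1.29%. These letters are a description of these windows, which end 250 bases before the start. A count of 0 therefore does not cover promoter sites just upstream of the window or more distant enhancers.

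The mean log2 FC was negative for 8 of the 10 AP-1 members, and the direction was the same in all pairs for some members only. Differences between members were not tested. FOS, FOSB, JUN and JUNB were lower in pGRHL2 in 4 of 4 pairs, with mean decreases of 19 to 31.2% on the linear scale. BATF3, which was very weakly expressed, was higher in 4 of 4 pairs by a mean of 0.07 on the log2 scale, and the direction of the other 5 members varied between pairs. Of all genes, 10.5% were lower and 13.4% were higher in all 4 pairs. In the limma fit over all genes, 3 of the 10 members, FOSB, FOS and JUNB, passed an adjusted p of 0.05 as lower and 0 members as higher. The share of all genes called was 2.19%, made up of 0.501% called lower and 1.69% called higher, and 0.746% were called lower among the 10858 genes with a mean value of at least 5, the level reached by 9 of the 10 members. The median log2 FC over the members was -0.18, and it was -0.07 without replicate 2 and between -0.264 and -0.155 without each of the other replicates. An unadjusted p under 0.05 was found for 5 of the 10 members and for 2802 of the 17561 genes. The count of 3 members became 1 (FOSB) without replicate 1 or without replicate 2, 0 without replicate 3, and 0 when the variance prior of limma had no trend on level. In RNA from whole cultures, fewer cells expressing a gene and less of its RNA per cell cannot be told apart.

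**Figure D1:**
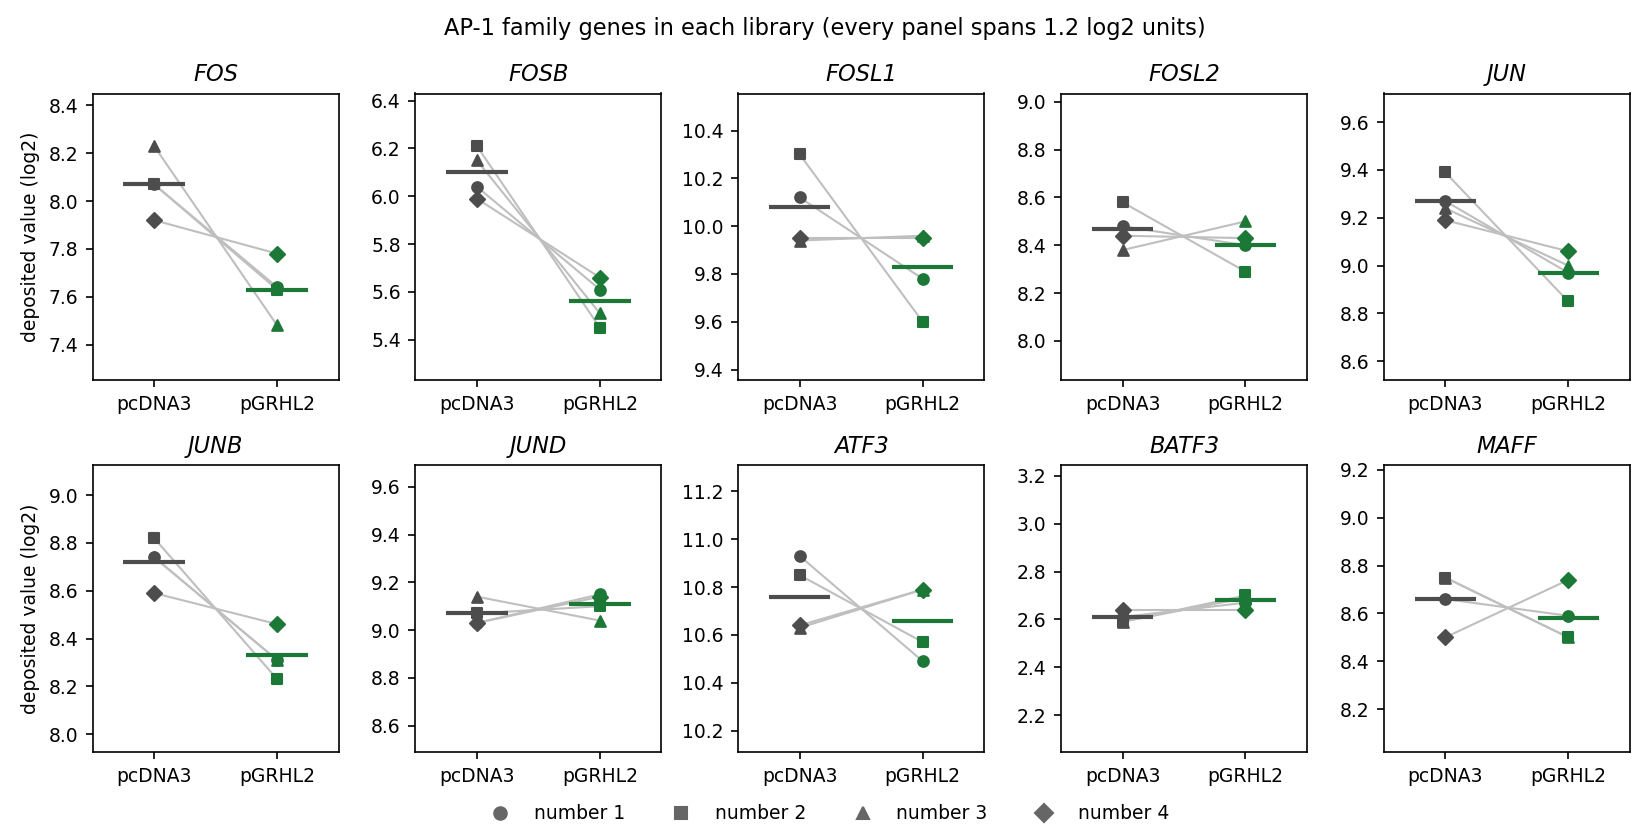
Deposited log2 values of the 10 AP-1 members in each library, with pcDNA3 in grey and pGRHL2 in green, grey lines joining libraries of the same number, and horizontal bars for the group means (n = 4). For FOS, FOSB, JUN and JUNB every green point lies below every grey point, as for FOSB between 5.45 and 5.66 against 5.99 and 6.21, whereas the groups overlap for FOSL1, FOSL2, JUND, ATF3 and MAFF.

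FOSB encodes a FOS protein that, like FOS, carries a strong activation domain. In hg38 the gene occupies bases 45467995 to 45475179 of chromosome 19, plus strand. Its values were 6.04, 6.21, 6.15 and 5.99 in pcDNA3 libraries 1 to 4 and 5.61, 5.45, 5.51 and 5.66 in pGRHL2 libraries 1 to 4. Every pGRHL2 library was below every pcDNA3 library. The pair differences were -0.43, -0.76, -0.64 and -0.33, giving a log2 FC of -0.54 ± 0.20 (SD, n = 4 pairs), the largest among the members and a ratio of 0.688 on the linear scale. FOSB was also the member that kept its limma call most often. It remained called in 3 of 4 fits when replicates were left out in turn.

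FOS, at bases 75278826 to 75282230 of chromosome 14 (plus strand), is the best known immediate early gene. Its values were 8.07, 8.07, 8.23 and 7.92 in pcDNA3 and 7.64, 7.63, 7.48 and 7.78 in pGRHL2. The groups did not overlap, and the gap was widest in pair 3 and narrowest in pair 4. The log2 FC was -0.44 ± 0.25 (SD, n = 4 pairs), from differences of -0.43, -0.44, -0.75 and -0.14. On the linear scale the mean decrease was 26.3%.

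FOSL1 and FOSL2 encode FRA1 and FRA2, FOS-related proteins that lack the strong activation domain of FOS and are induced later. FOSL1, at bases 65892049 to 65900573 of chromosome 11 (minus strand), had values of 10.12, 10.30, 9.94 and 9.95 in pcDNA3 and 9.78, 9.60, 9.96 and 9.95 in pGRHL2. Pairs 1 and 2 thus differed by -0.34 and -0.71, whereas pairs 3 and 4 differed by 0.02 and 0.0040, so that the log2 FC of -0.25 ± 0.34 (SD, n = 4 pairs) rested on the first 2 pairs. FOSL2, at bases 28392448 to 28417317 of chromosome 2 (plus strand), ranged from 8.38 to 8.58 in pcDNA3 and from 8.29 to 8.50 in pGRHL2. Its log2 FC was -0.07 ± 0.17 (SD, n = 4 pairs), smaller than the spread between pairs, and was 0.0090 without replicate 2.

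JUNB, at bases 12791486 to 12793315 of chromosome 19 (plus strand), encodes a JUN protein that can restrain the activity of JUN. Its values were 8.74, 8.82, 8.74 and 8.59 in pcDNA3 and 8.31, 8.23, 8.31 and 8.46 in pGRHL2. The groups did not overlap, and pair 4 was again the closest. The log2 FC was -0.39 ± 0.20 (SD, n = 4 pairs), from differences of -0.42, -0.59, -0.44 and -0.12. In GENCODE release 44, 14.2% of the exon bases of JUNB are shared with HOOK2. The study counted without strand in union mode, which leaves out reads over exons of both genes. For HOOK2 itself the log2 FC came to 0.11 ± 0.12 (SD over the 4 pairs, adjusted p of 0.46 in limma).

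JUN, at bases 58776845 to 58784048 of chromosome 1 (minus strand), encodes the main partner of FOS proteins. Its values were 9.27, 9.39, 9.24 and 9.19 in pcDNA3 and 8.97, 8.85, 9.00 and 9.06 in pGRHL2. The groups did not overlap, although JUN did not pass the limma threshold over all genes. The log2 FC was -0.30 ± 0.17 (SD, n = 4 pairs), from differences of -0.31, -0.54, -0.24 and -0.13. JUND, at bases 18279694 to 18281622 of chromosome 19 (minus strand), did not keep the same direction in all pairs. Its values were 9.03, 9.07, 9.14 and 9.03 in pcDNA3 and 9.15, 9.10, 9.04 and 9.14 in pGRHL2. The groups overlapped, with 3 pairs higher and 1 lower, at a log2 FC of 0.04 ± 0.10 (SD, n = 4 pairs).

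**Figure D2:**
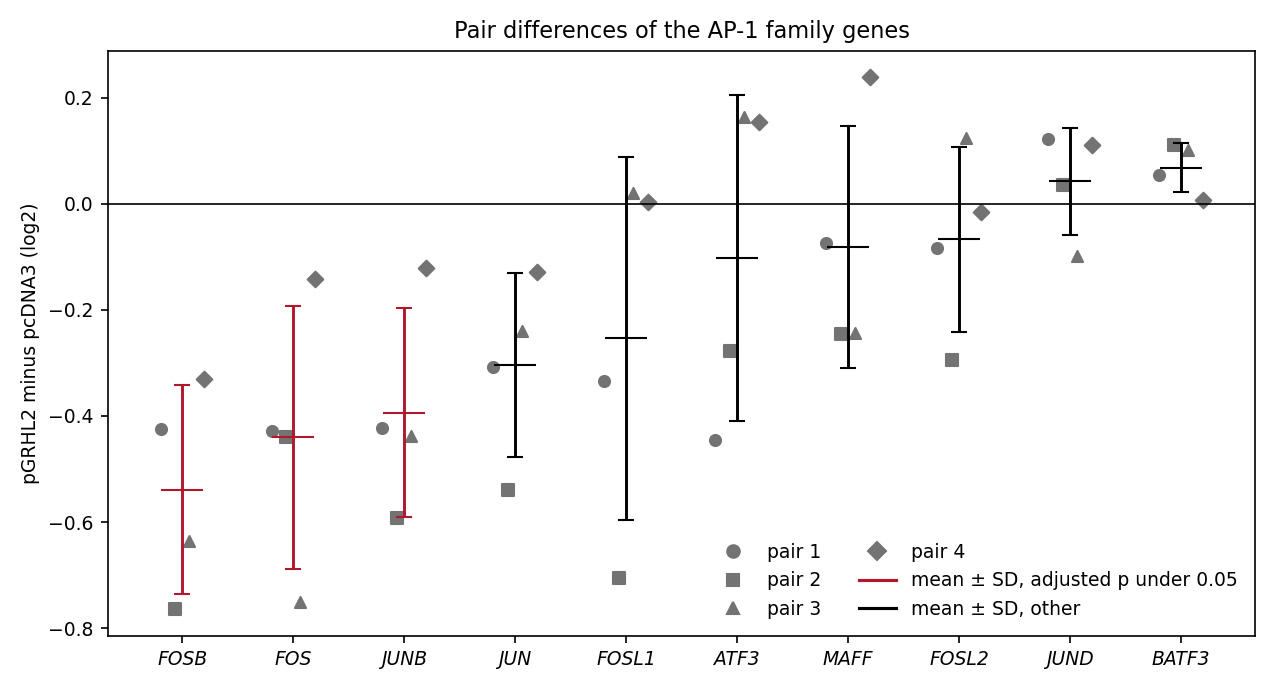
Pair differences (pGRHL2 minus pcDNA3, log2) of the 10 AP-1 members, ordered by their mean, with 1 symbol per pair and bars for the mean ± SD (n = 4 pairs), in red for members called by limma over all genes. FOSB, FOS, JUNB and JUN have 4 points below 0, the diamond of pair 4 being the nearest to 0 in each of them, and BATF3 has 4 points above 0.

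ATF3, a stress-induced factor that can repress AP-1 and CRE sites, had the highest value of all members. The gene occupies bases 212565334 to 212620777 of chromosome 1, plus strand. Its values were 10.93, 10.85, 10.63 and 10.64 in pcDNA3 and 10.49, 10.57, 10.79 and 10.79 in pGRHL2. Pairs 1 and 2 differed by -0.44 and -0.28 while pairs 3 and 4 differed by 0.16 and 0.15, which left a log2 FC of -0.10 ± 0.31 (SD, n = 4 pairs). Without replicate 1 this became 0.01. FOSL1 showed the same division between the first 2 and the last 2 pairs.

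MAFF, at bases 38200767 to 38216507 of chromosome 22 (plus strand), encodes a small MAF protein without an activation domain, which pairs with NRF-type factors as well as with AP-1 proteins. It ranged from 8.50 to 8.75 in pcDNA3 and from 8.50 to 8.74 in pGRHL2, with a log2 FC of -0.08 ± 0.23 (SD, n = 4 pairs). The groups overlapped almost completely, pair 4 being higher by 0.24 and the other 3 lower. PLA2G6 shares 5.81% of the exon bases of MAFF. BATF3, known from dendritic cells, occupies bases 212686417 to 212699840 of chromosome 1, minus strand, and ranged from 2.59 to 2.64 in pcDNA3 and from 2.64 to 2.70 in pGRHL2. Its log2 FC was 0.07 ± 0.05 (SD, n = 4 pairs), and since differences of weakly covered genes are shrunk by the rlog transformation, the size of this difference may be understated.

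Levels of the members were compared on the length-scaled log2 values of the pcDNA3 libraries. The order from high to low was ATF3 (mean of 10.76), FOSL1 (10.08), JUN (9.27), JUND (9.07), JUNB (8.72), MAFF (8.66), FOSL2 (8.47), FOS (8.07), FOSB (6.10) and BATF3 (2.61). JUNB and MAFF had overlapping ranges over the 4 libraries, as did MAFF and FOSL2, while the other neighbours did not overlap. Because replicate means had been removed, these ranges lack the variation between replicates. A lack of overlap therefore does not show that levels are separated. ATF3 stood at percentile 93.4 of all genes by mean pcDNA3 value, FOS at 63.9 and BATF3 at 22.1. FOSL1 was thus the highest FOS gene and FOSB the lowest, and the members with the larger decreases were not the highest ones. In pGRHL2, JUND (9.11) stood above JUN (8.97) with overlapping ranges, and JUNB (8.33) came after MAFF (8.58) and FOSL2 (8.40). The order depends on the transcript length assigned to each gene, which for FOS was a mean of 995 bases over 10 annotated transcripts in GENCODE release 44.

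The makeup of each subfamily was obtained from the linear values, and its SD over libraries likewise lacks the variation between replicates. Shares of genes in a subfamily depend on each other and restate the values given above. JUN, JUNB and JUND took 39.2% ± 1.04, 26.8% ± 0.688 and 34.0% ± 1.42 (SD, n = 4) of the summed JUN subfamily in pcDNA3, and 36.5% ± 1.09, 23.4% ± 0.685 and 40.2% ± 1.54 in pGRHL2. The share of JUND was larger in pGRHL2 in 4 of 4 pairs, by 6.20 ± 2.96 percentage points (SD, n = 4 pairs). JUND itself had a log2 FC of 0.04 ± 0.10. The summed JUN subfamily was lower in 4 of 4 pairs, with ratios from 0.790 to 0.974. The shares of JUN and JUNB were smaller in 4 of 4 pairs, with differences of -2.77 ± 2.13 and -3.38 ± 1.37 points.

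The summed FOS subfamily was also lower in 4 of 4 pairs, with ratios of 0.814, 0.668, 0.939 and 0.978 in pairs 1 to 4. Most of the sum was FOSL1, which held 60.9% ± 2.21 in pcDNA3 and 60.8% ± 2.03 in pGRHL2 (SD, n = 4). The share of FOSL2 was larger in 4 of 4 pairs by 2.72 ± 1.68 percentage points, and that of FOSB was smaller in 4 of 4 pairs with a difference of -0.70 ± 0.45 points, from a mean of 3.86 to 3.16%. The share of FOS was smaller in 3 of 4 pairs, at a mean of 15.2% in pcDNA3 and 13.4% in pGRHL2.

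**Figure D3:**
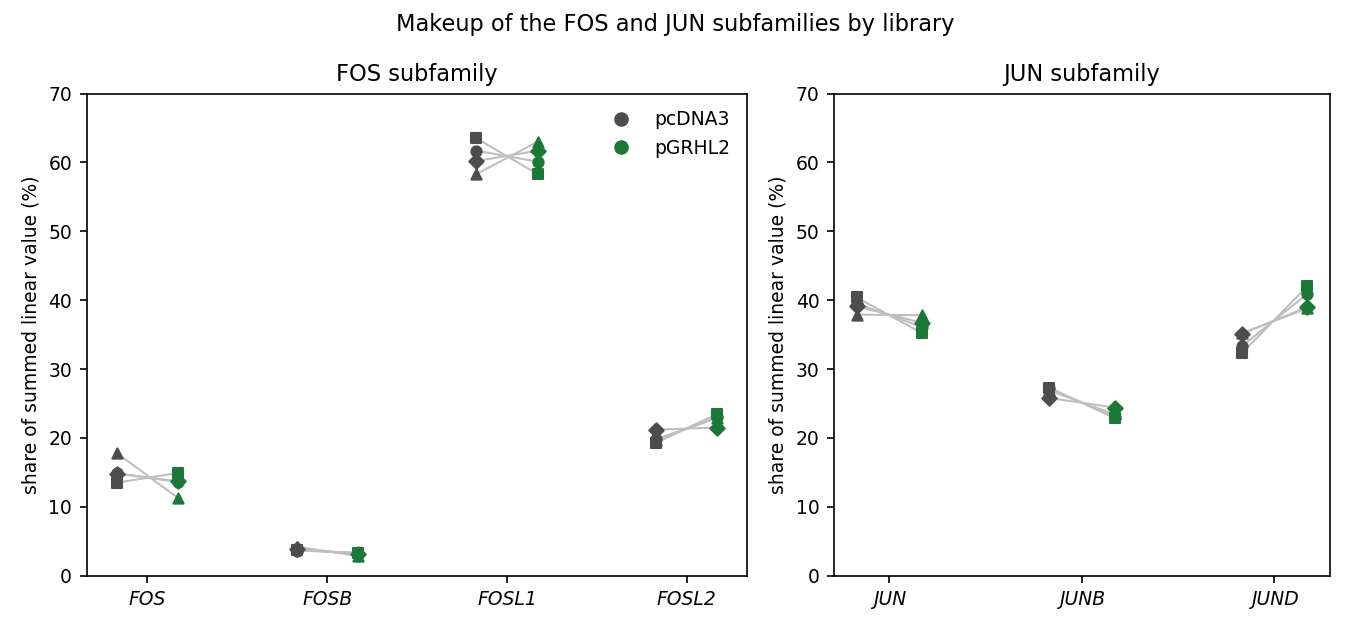
Share (%) of each gene in the summed linear, length-scaled values of its subfamily, for pcDNA3 (grey) and pGRHL2 (green) libraries, with lines joining same-numbered libraries and 1 symbol shape per number. JUND lies between 32.3 and 35.2% in pcDNA3 and between 38.8 and 42% in pGRHL2, while FOSL1 stays near 60% in both groups. Shares within a subfamily depend on each other.

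The 4 pairs did not carry the differences equally. The median difference over the 10 members was -0.32 in pair 1, -0.37 in pair 2, -0.17 in pair 3 and -0.0060 in pair 4, and the number of members lower in pGRHL2 was 8, 8, 6 and 5. Over all genes, the medians of the same pairs lay between 0.0008 and 0.0059. For FOS, FOSB, JUN and JUNB, pair 4 gave the smallest decrease in each case, and pair 2 the largest except for FOS. The GRHL2 differences in pairs 1 to 4 were 8.97, 9.51, 10.26 and 9.18, and their relation to those of the members was not tested. Members were also compared by the root mean square difference between their 4 pair differences. JUN and JUNB were the closest members by this measure (0.117), followed by JUND with BATF3 (0.123) and FOSB with JUNB (0.167).

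The genes around AP-1 were examined in lists of partners, upstream factors and targets. In all lists together, 4 genes passed the limma threshold. The share of all genes called was 2.19%, which is the value to set beside each count of called genes below. Counts at an unadjusted p under 0.05 are to be set beside 2802 of the 17561 genes. That count was 7 for the 29 dimer partners and other bZIP factors and 4 for the 22 upstream kinase genes. It was 3 for the 26 AP-1 targets and 4 for the 15 immediate early genes outside AP-1. Among 29 dimer partners and other bZIP factors, 1 gene was lower and 0 were higher. MAFG, a small MAF gene related to MAFF, fell by 0.32 ± 0.10 on the log2 scale (SD over 4 pairs, adjusted p of 0.0354 in limma), from 9.52 to 9.20. Its values were 9.52, 9.58, 9.47 and 9.49 in pcDNA3 and 9.19, 9.13, 9.25 and 9.22 in pGRHL2. MAFG fell in all pairs, including pair 4 in which MAFF was higher. The median log2 FC of this list was -0.05.

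Upstream of AP-1, growth factor and stress signals reach the FOS and JUN promoters through MAP kinases and the serum response factor. Among 22 genes of these kinase cascades, including the receptor gene EGFR, 1 gene passed as higher and 0 as lower, with a median log2 FC of -0.0030. RPS6KA5, which encodes the histone H3 kinase MSK1, rose by 0.15 ± 0.04 (SD over 4 pairs, adjusted p of 0.019 in limma) at a low mean value of 2.74. EGFR had a log2 FC of 0.26 ± 0.25 (adjusted p of 0.185 in limma). Of 7 promoter-bound inducers of FOS, 0 passed (limma), and 1 had an unadjusted p under 0.05. SRF, the serum response factor that binds the CArG box, had a log2 FC of -0.15 ± 0.06 with 4 of 4 pairs lower (adjusted p of 0.219 in limma). Of 8 genes of JUN and FOS protein turnover, 0 passed (limma), and 1 had an unadjusted p under 0.05. FBXW7, the subunit that recognises JUN for degradation, had a log2 FC of 0.12 ± 0.06 (adjusted p of 0.322 in limma).

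Among 26 genes known as AP-1 targets, 1 was called lower and 0 higher, with a median log2 FC of -0.01. HMOX1, the heme-degrading enzyme heme oxygenase 1, fell by 0.60 ± 0.27 (SD over 4 pairs, adjusted p of 0.0175 in limma), from a mean of 10.50 to 9.90. Of these 26 genes, 3 were lower and 2 were higher in all 4 pairs, against 10.5% and 13.4% of all genes. Among 15 immediate early genes outside AP-1, 1 was called lower and 0 higher, with a median log2 FC of -0.02. KLF10, a TGF-beta-inducible zinc finger factor, fell by 0.64 ± 0.27 (SD over 4 pairs, adjusted p of 0.0137 in limma), from 11.40 to 10.76. Without replicate 1, 0 genes of any list were called by limma, and likewise without replicate 3. Without replicate 2, 1 gene was called, a hepatocyte marker, and without replicate 4 the calls were in the AP-1 target and immediate early lists, so that MAFG and RPS6KA5 lost their calls in each of these 4 fits.

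**Figure D4:**
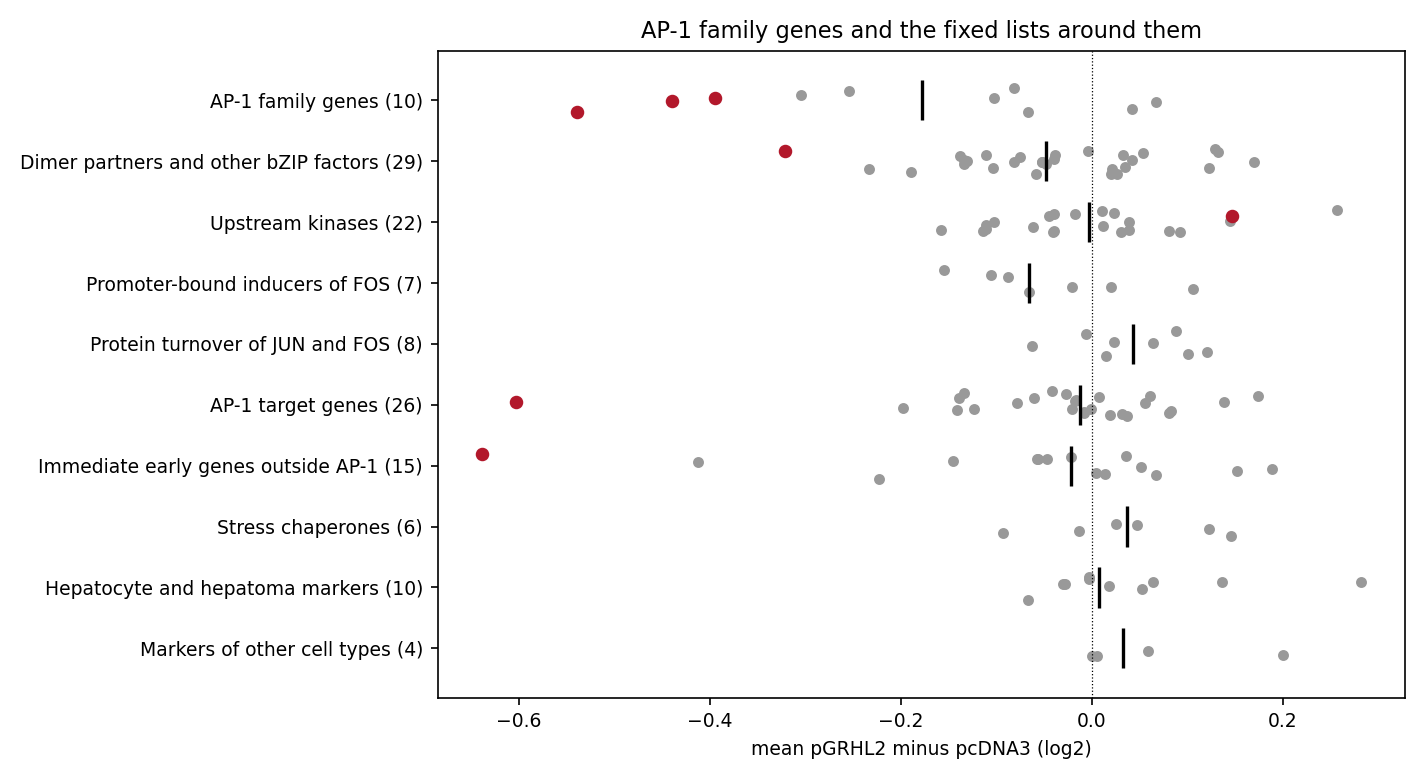
Mean pGRHL2 minus pcDNA3 differences (log2) of the 10 AP-1 members and of the genes of 9 lists, with the number of genes tested in parentheses, 1 point per gene, red for an adjusted p under 0.05 (limma over all genes) and a black bar for the median; vertical scatter within a row carries no value. The median of the AP-1 members is -0.18, whereas the medians of the lists lie between -0.07 and 0.04.

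The genes most like FOSB were named by the smallest root mean square difference between their pair differences and those of FOSB, over 4 pairs and among genes with a mean value of at least 5. They were BCL3 (0.100), HMOX1 (0.131), CHASERR (0.164), GADD45B (0.165) and PIM1 (0.177). Since they were chosen for pair differences near those of FOSB, their decreases follow from the choice and are only a description. In the limma fit over all genes, BCL3, HMOX1, CHASERR and PIM1 had adjusted p of 0.00369, 0.0175, 0.0393 and 0.0425. GADD45B had an adjusted p of 0.0661. These values are no separate evidence of likeness to FOSB. BCL3 encodes an atypical IkB protein and PIM1 a serine/threonine kinase, GADD45B is a stress-inducible gene and CHASERR a long noncoding RNA. Their log2 FC were -0.60, -0.60, -0.39, -0.41 and -0.36 in that order.

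Hepatocyte and hepatoma markers and markers of other cell types were examined. Mean values ran from 7.11 (APOC3) to 17.11 (AFP) for the hepatocyte and hepatoma markers. For the tested markers of other cell types they ran from 1.91 (VWF) to 8.14 (ACTA2). All 10 hepatocyte and hepatoma markers were among the genes tested, and the log2 of their summed linear values lay between 18.10 and 18.31 in pcDNA3 and between 18.20 and 18.40 in pGRHL2. Of the 10, 0 passed the limma threshold and 1 had an unadjusted p under 0.05. FGB, a fibrinogen gene, had a log2 FC of 0.28 ± 0.33 (adjusted p of 0.249 in limma). Of 10 markers of immune, endothelial, mesenchymal and basal cells, 4 were among the genes tested and 0 passed (limma), while 1 had an unadjusted p under 0.05. Their log2 sums lay between 8.54 and 8.60 in pcDNA3 and between 8.59 and 8.65 in pGRHL2, and COL1A1 had a log2 FC of 0.20 ± 0.10 (adjusted p of 0.0838 in limma). Of 6 stress chaperones, which are induced by misfolded proteins and heat, 0 passed (limma) and 1 had an unadjusted p under 0.05. HSPB1 had a log2 FC of 0.15 ± 0.24 (adjusted p of 0.471 in limma). The part of these markers in the values of the AP-1 genes was not tested.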

How the data were processed

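Per the methods of the study and the submitters' processing notes (HISAT2 2.2.1, HTSeq 0.9.1, DESeq2 1.40.2), the authors mapped reads to hg38, counted those over exons without strand in union mode, left out weakly covered genes, used the rlog transformation of the counts and divided by mean transcript length. The deposited values are on a log2 scale. Among 2965 genes with an SD under 0.02, the mean value followed log2 transcript length with a slope of -0.83. Replicate means were identical for 17561 of 17561 genes (tolerance of 1e-09), a step not described in the sources used here. Deviations of same-numbered libraries are therefore opposite by construction and cannot show whether the numbers pair them. A stray trailing character was removed from 1 value.

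Differences were tested with limma 3.58.1 in R 4.3.3 (lmFit, eBayes with trend, replicate number as a block, 3 residual degrees of freedom), with Benjamini-Hochberg adjustment over all genes and a threshold of 0.05. The fit was tested on simulated data. The members and lists were chosen with earlier results of these data known. Named genes were the members, GRHL2, in each list the called genes and the largest difference at a mean value of at least 0, and the 5 genes nearest to the member with the largest difference. HOOK2 and PLA2G6, which overlap members, were added afterwards. Locations and exons came from GENCODE release 44 and promoters from RefSeq. Other settings were the fit without the block, other priors, weights, scalings and filters, a level trend, a threshold of 0.01 and leaving out each pair.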

Additional observations from a re-analysis of the deposited data

Results flagged for a closer look

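Among 25 genes examined, 3 had a pair difference far from the other 3 pairs. For genes chosen without regard to their differences, chance gives about 1 in 20. Some of these genes were chosen by the same differences, so that rate does not apply to them. For FGB, pair 2 gave 0.771 and the remaining pairs a median of 0.128. For HSPB1, pair 3 gave -0.216 and the remaining pairs 0.284. For RPS6KA5, pair 4 gave 0.203 and the remaining pairs 0.124. All AP-1 members were within the limit used, so the small decreases in pair 4 did not stand apart from the other pairs by this measure.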

How the results depend on the processing

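Without the replicate block, limma called 5 AP-1 members (JUN and BATF3 added), 28 genes of the lists, and 1821 higher and 1427 lower genes. That fit counts 6 residual degrees of freedom although the replicate means had been removed. Called members were 0 without a trend in the prior (4 higher and 2 lower genes, 0 of the lists), 1 with a level trend removed (191 higher) and 1 at an adjusted p under 0.01 (77 higher, 10 lower, 0 of the lists). With arrayWeights, JUN was added to the 3 members, with 7 list genes, 503 higher and 221 lower genes. Higher genes numbered 63 with a mean value of at least 5 and 495 when libraries were scaled to equal totals of all genes but GRHL2, where the share of higher calls was 43.8% and 84.2% in place of 77.1%. Leaving out replicates gave 0 to 3 members, 0 to 3 list genes, 79 to 156 higher and 8 to 68 lower genes. FOSL2 ranged from -0.131 to 0.009 and ATF3 from -0.19 to 0.013, turning positive without replicate 2 and without replicate 1, respectively. The other 8 members kept their sign in all fits run, and the median over the members lay between -0.264 and -0.073 without each replicate in turn, the latter without replicate 2. Of the members, 5 held the same rank by level in pGRHL2. How far read depth limits the calls is unknown, since counts were not used here. The causes of these changes were not tested.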
